A study of Mus musculus with 15 samples.

Results

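The MYC and MAX network is a set of basic helix-loop-helix leucine zipper proteins that meet on the same DNA element, and 10 of its genes were followed by name through RNA sequencing of mouse CD8+ T cells: Myc, Mycn, Max, Mxd1, Mxd3, Mxd4, Mxi1, Mnt, Mlx and Mga. All 10 symbols were found among the 11262 genes listed for naïve and activated CD8+ T cells and among the 11211 genes listed for cytotoxic T lymphocytes (CTL). The cells came from P14 mice, which carry a transgenic T cell receptor (TCR) for the LCMV peptide gp33–41, so that every group shared 1 antigen specificity. Naïve cells were sorted ex vivo as CD62L high and CD44 low CD8+ cells. Both activated groups were sorted after culture as CD8+ cells negative for the dye DAPI, with no gate on CD62L or CD44 given. TCR activated cells were cultured for 24 h with gp33–41 at 100 ng/ml, IL-12 at 2 ng/ml, IL-2 at 20 ng/ml and DMSO as the vehicle, and the other activated group received in addition 10 µM IC87114, an inhibitor of the PI3K p110δ catalytic subunit (PI3Kdi). These 3 groups held 3 biological replicates each, every one a lymph node pool of 3 female mice of 9 to 13 weeks that was divided between the groups. CTL were primed for 48 h, grown for 4 days in 20 ng/ml IL-2, washed on day 6 and then either given back 20 ng/ml IL-2 or held without IL-2 for 24 h, with 3 biological replicates in each group. The age of the mice behind the CTL and any sort of these cells are not given in the sources used here.

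MYC and its relative MYCN dimerise with MAX and bind the E-box, from which they raise transcription of genes for ribosome production, nucleotide and polyamine synthesis, glycolysis and amino acid uptake. The MXD proteins and MNT also dimerise with MAX at the E-box, but they recruit SIN3 corepressors and histone deacetylases and lower transcription. MLX is a MAX-like partner for the glucose responsive factors MLXIP and MLXIPL, and MGA links MAX to a Polycomb-type repressor complex. In T cells, MYC is known as a driver of the growth that follows antigen recognition and IL-2 signalling.

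Levels are FPKM, that is, fragments scaled to the length of each gene's exons and to the size of the library, and they can be compared between genes. Read totals of the libraries are not given in the sources used here, and no limit of detection was derived. All 5 CD8 T cell markers searched (Cd8a, Cd8b1, Cd3d, Cd3e and Cd3g) were above 1 FPKM in every group, with sums between 637 and 3482 FPKM per library. The B cell markers Cd79a, Cd79b, Ms4a1 and Cd74 summed to 25.6–45.0 FPKM in the naïve libraries and 12.8–27.8 FPKM in the TCR activated ones. They summed to 5.06–7.90 FPKM in the PI3Kdi treated libraries, which were below every naïve and TCR activated library. Between the activated groups Cd74 was at 17.25, 8.96 and 22.05 FPKM with TCR activation alone and at 2.00, 3.57 and 3.8 FPKM with PI3Kdi, Ms4a1 was at or below 0.95 FPKM in both, and Cd79b overlapped. The part of these markers in the results for PI3Kdi was not tested. In CTL, Cd79a and Ms4a1 are not in the table used here, and Cd79b and Cd74 summed to at most 31.1 FPKM. Of the myeloid markers, Lyz2 and Csf1r are in neither table used here, and those listed summed to at most 21.7 FPKM. Cd4 reached at most 1.92 FPKM in CTL, where the sum of the CD4 T cell list was carried by Zbtb7b, and Ncr1 of NK cells is in neither table used here. The NK list rested on Eomes, which CD8 T cells express as well and which was lower with PI3Kdi (4.03–8.24 FPKM) than with TCR activation alone (12.4–23.8 FPKM), and lower in CTL without IL-2 (9.97–20.8 FPKM) than in IL-2 (75.8–163 FPKM). The B cell and myeloid sums were both higher in CTL without IL-2, going from a range of 5.52–13.4 to 19.1–31.1 FPKM and from 5.57–9.67 to 13.7–21.7 FPKM, and their part in the results for CTL was not tested.

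In naïve cells, the highest mRNA of the network was Myc at 70.6 ± 14.6 FPKM (SD, n = 3), followed by Max at 67.6 ± 7.27 FPKM, and these neighbours overlapped. Mlx at 43.2 FPKM and Mxd4 at 32.5 FPKM came next, each separate from its neighbours. Mycn and Mxd3 were at the bottom, with most of their naïve libraries at 0, where blank cells were read as 0. After 24 h of TCR activation, Myc stood alone at the top with 350 FPKM and Mxd4 had dropped to the last place with 0.407 FPKM. The order in PI3Kdi treated cells had the same first 5 genes, and Mycn took the last place at 0.0867 FPKM. In CTL held in IL-2, Myc at 214 FPKM and Max at 72.8 FPKM were followed by Mycn at 45.8 FPKM, and the libraries of neighbouring genes overlapped from Mxi1 at 20.2 FPKM down to Mga at 7.98 FPKM. CTL without IL-2 had Mxd4 at the top, at 87.2 FPKM, with all 3 libraries above every library of Myc at 42.4 FPKM. The CTL were normalised separately from the other cells, so levels of the 2 sets are set side by side with no test between them.

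**Figure D1:**
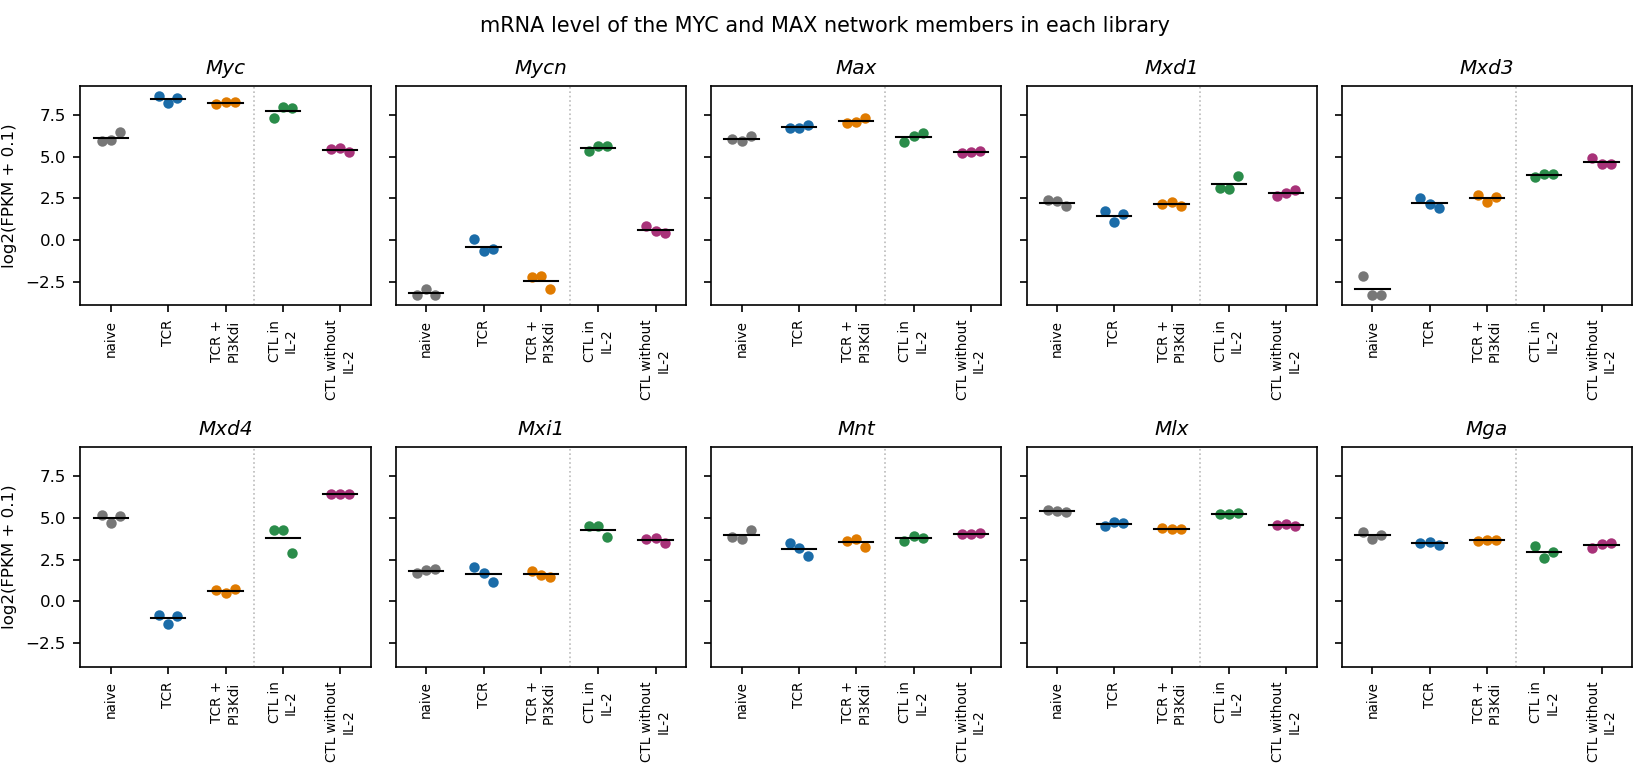
mRNA level of each of the 10 network members on the log2(FPKM + 0.1) scale in the 15 libraries, with 1 panel per gene, points for libraries and a black line for the group mean of 3. The dotted line parts 2 separately normalised tables, and Mxd4, Mxd3 and Mycn span wide ranges, while Mga, Mnt, Mxd1 and Mxi1 were not called in any comparison.

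Members were compared with limma on log2(FPKM + 0.1), a scale on which the differences of low genes come out too small. Calls required an adjusted p under 0.05 together with a fold change above 2 or below 0.5. In comparisons with naïve cells, which came ex vivo, peptide, cytokines, 24 h of culture and the sort cannot be told apart. Between naïve and TCR activated cells, 3 of the 10 members were called higher and 1 lower, against a background of 25.0% of all genes called higher, 23.7% called lower and 48.7% called in either direction. The 2 groups did not overlap in 9 of the 10 members, and this was so for 80.7% of all genes. With PI3Kdi against TCR activation alone, 1 member was called higher and 1 lower, where 3.04% of all genes were called higher, 2.10% lower and 5.14% in either direction. Without the fold limit, 3 members were higher and 2 lower at an adjusted p under 0.05 in limma, beside 9.35% of all genes higher, 8.19% lower and 17.5% in either direction. With the replicate number as a block, 3 were higher and 1 lower, since Mlx then had an adjusted p of 0.057 in limma. Groups were separate for 6 members in that comparison and for 36.7% of all genes.

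PI3Kdi treated cells against naïve cells gave 3 members called higher and 2 lower, beside 23.6% of all genes higher, 21.3% lower and 45.0% in either direction. Here 7 members had separate groups, as did 82.9% of all genes. In CTL, withdrawal of IL-2 left 1 member called higher and 2 lower, with a background of 14.3% higher, 13.9% lower and 28.2% in either direction. The CTL groups were separate in 9 members and in 76.1% of all genes. The 3 comparisons of naïve and activated cells share libraries, so their values are given side by side and no overlap between them was taken.

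**Figure D2:**
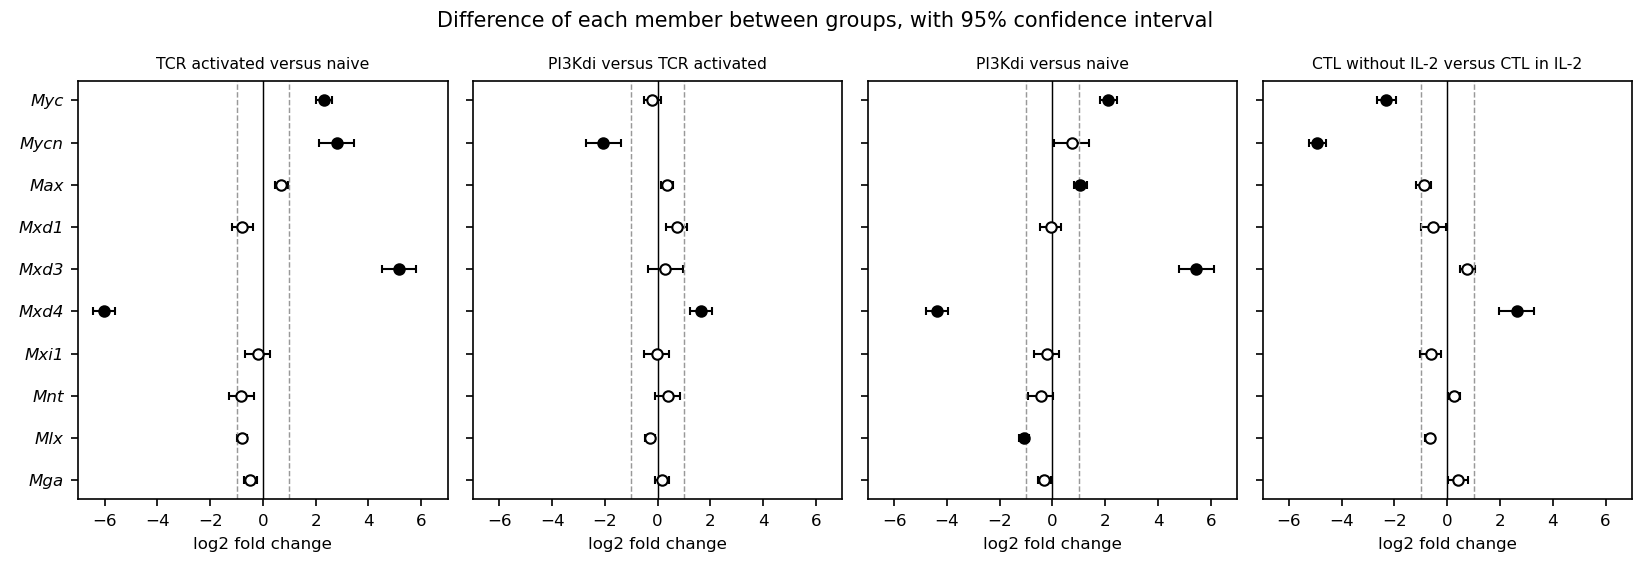
Difference of each member between groups as the limma log2 fold change on log2(FPKM + 0.1), with bars for the 95% confidence interval, filled circles for called members and dashed lines at a fold change of 2 in either direction. Mxd4 lies at -6.01, 1.64, -4.37 and 2.63 in the 4 panels, and Myc lies at 2.32, -0.20, 2.12 and -2.31.

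Of the activating members, Myc (chromosome 15, 61985341 to 61990361 of GRCm38, plus strand) encodes the factor that gives the network its name. Its mRNA was at 61.9, 62.4 and 87.5 FPKM in the naïve libraries and at 398, 293 and 359 FPKM after TCR activation. With PI3Kdi the libraries had 286, 309 and 314 FPKM. Both activated groups lay above all naïve libraries, and they overlapped with each other. The PI3Kdi value differed from the TCR value by -0.20 on the log2 scale with a 95% confidence interval from -0.52 to 0.12 (limma adjusted p = 0.39), which leaves out a change as large as 2-fold. In bulk libraries, fewer cells of a type with the mRNA and less of that mRNA per cell cannot be told apart, and this holds for every level given here. FPKM are also scaled to the size of the library, so a change in the total mRNA of a cell does not show in them.

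In CTL, Myc was at 158, 248 and 238 FPKM with IL-2 and at 43.5, 44.8 and 38.8 FPKM without it. The groups were far apart, although replicate 1 in IL-2 was lower than the other 2. Myc fell by 2.31 on the log2 scale (standard error 0.16, limma adjusted p = 1.6e-06), and the fall was between 2.19 and 2.52 when each library was left out in turn. As a share of the summed FPKM of all 10 members, Myc made up 46.8% ± 4.67 (SD, n = 3) in IL-2 and 15.9% ± 0.98 without it. The corresponding shares were 27.7% before activation, 67.5% in TCR activated cells and 60.2% in PI3Kdi treated cells, where all libraries (59.2–61.4%) were below those of TCR activation (64.4–70.6%).

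Mycn (chromosome 12, 12936093 to 12941836, minus strand) encodes the relative of MYC best known from the nervous system and neuroblastoma. In naïve cells it was at 0, 0.03 and 0 FPKM, and TCR activated cells had 0.92, 0.53 and 0.58 FPKM. PI3Kdi treated cells had 0.11, 0.12 and 0.03 FPKM, all below every TCR activated library and touching the naïve range. The difference between PI3Kdi and TCR activation was -2.06 (standard error 0.30, limma adjusted p = 9.4e-04), and that between TCR activation and naïve cells was 2.80 (standard error 0.30, limma adjusted p = 4.5e-06). These sizes rest on the constant added before the logarithm: with 1 in place of 0.1 they became -0.62 and 0.72, neither of them called. Mycn was thus a minor mRNA in these cells, at 0.191% of the sum of Myc and Mycn after TCR activation.

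CTL held another level of Mycn. The libraries in IL-2 had 39.6, 48.8 and 49.0 FPKM, and those without IL-2 had 1.67, 1.36 and 1.22 FPKM, with no overlap. Mycn fell by 4.92 on the log2 scale (standard error 0.14, limma adjusted p = 6.1e-08), which is larger than the fall of Myc in the same libraries, though the difference between the 2 genes was not tested. The share of Mycn in the sum of Myc and Mycn was 17.9% ± 1.93 (SD, n = 3) in IL-2 and 3.23% ± 0.41 without IL-2. No annotated gene overlaps Myc or Mycn in GENCODE vM21.

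Max (chromosome 12, 76937269 to 76962323, minus strand) encodes a shared partner of MYC, MYCN, the MXD proteins, MNT and MGA. It was at 67.2, 60.4 and 75.0 FPKM in naïve cells, 106, 103 and 119 FPKM after TCR activation and 128, 134 and 160.4 FPKM with PI3Kdi. The 3 groups were separate and ascended in that order. TCR activation differed from naïve by 0.70 (limma adjusted p = 1.1e-04), under the fold limit, while PI3Kdi treated cells differed from naïve by 1.06 (standard error 0.11, limma adjusted p = 4.1e-06) and were called. That call lay close to the limit, and the value was 0.98 without naïve replicate 2 and 0.96 without PI3Kdi replicate 3.

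Against TCR activation alone, PI3Kdi left Max higher by 0.36 (95% confidence interval from 0.11 to 0.60, limma adjusted p = 0.047), not called. CTL had 59.2, 74.3 and 84.9 FPKM of Max in IL-2 and 37.3, 38.5 and 40.15 FPKM without it. These groups did not overlap, and the difference of -0.90 (limma adjusted p = 1.2e-04) was short of the fold limit; it reached -1.04 and was called without replicate 1 in IL-2. The ratio of the summed FPKM of Myc and Mycn to that of Max was 1.04 ± 0.12 (SD, n = 3) before activation, 3.20 ± 0.49 with TCR activation alone and 2.17 ± 0.19 in PI3Kdi treated cells. The same ratio was 3.57 ± 0.37 in CTL with IL-2 and 1.14 ± 0.12 without.

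On the repressing side, Mxd4 (chromosome 5, 34176580 to 34187710, minus strand) was the repressing member called in all 4 comparisons. It encodes an antagonist of MYC that is typical of resting and differentiated cells. Naïve libraries had 36.6, 26.1 and 34.7 FPKM, and TCR activated libraries had 0.48, 0.29 and 0.45 FPKM. With PI3Kdi the values were 1.48, 1.32 and 1.58 FPKM. All 3 groups were separate, with PI3Kdi above TCR activation and far below naïve.

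Mxd4 fell by 6.01 on the log2 scale from naïve to TCR activated cells (standard error 0.19, limma adjusted p = 2.7e-10). PI3Kdi treated cells were at 1.64 above TCR activated cells (standard error 0.19, limma adjusted p = 2.4e-04), or 3.12-fold on this scale, while their difference from naïve cells was -4.37 (standard error 0.19, limma adjusted p = 3.8e-09). With a constant of 1 in place of 0.1, the difference between PI3Kdi and TCR activation was 0.81 and no longer called, since the mRNA was near 1 FPKM in both groups. In CTL, Mxd4 was at 19.1, 19.2 and 7.52 FPKM in IL-2 and at 87.2, 87.0 and 87.5 FPKM without it. Replicate 3 in IL-2 was well under the other 2, and all libraries without IL-2 were above all with it. Mxd4 rose by 2.63 (standard error 0.30, limma adjusted p = 4.0e-05), and by 2.18 without replicate 3 in IL-2.

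The E-box bound by the network is CACGTG, which reads the same on both strands, and it was looked up in the promoter windows of the members. RefSeq windows of 250 bases before and 50 bases after a transcription start (GRCm38.p6) were found for 9 of the 10 members, all but Myc. Of these 9 genes, 4 held the letters: Max, Mxd4, Mnt and Mlx. Among all 27025 genes with a window, 8.09% held it. The match began 219 bases before the start of Mxd4 (chr5:34187661-34187960, minus strand), 3 bases before that of Max (chr12:76962199-76962498, minus strand), 123 bases before that of Mnt (chr11:74830674-74830973, plus strand) and 40 bases before that of Mlx (chr11:101087040-101087339, plus strand). These 4 windows are printed to show where the shared element lies, with the E-box in capitals.
Mxd4: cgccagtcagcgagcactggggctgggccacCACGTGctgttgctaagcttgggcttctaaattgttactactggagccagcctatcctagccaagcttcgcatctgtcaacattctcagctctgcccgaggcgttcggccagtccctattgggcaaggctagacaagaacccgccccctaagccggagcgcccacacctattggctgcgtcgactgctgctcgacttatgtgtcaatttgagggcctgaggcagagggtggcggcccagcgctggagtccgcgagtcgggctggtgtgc
Max: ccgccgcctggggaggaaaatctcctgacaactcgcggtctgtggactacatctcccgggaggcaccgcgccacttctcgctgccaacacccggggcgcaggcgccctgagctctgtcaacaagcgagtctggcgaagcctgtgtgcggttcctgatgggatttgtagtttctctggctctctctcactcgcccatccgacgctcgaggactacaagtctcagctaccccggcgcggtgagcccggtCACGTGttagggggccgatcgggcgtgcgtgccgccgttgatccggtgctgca
Mnt: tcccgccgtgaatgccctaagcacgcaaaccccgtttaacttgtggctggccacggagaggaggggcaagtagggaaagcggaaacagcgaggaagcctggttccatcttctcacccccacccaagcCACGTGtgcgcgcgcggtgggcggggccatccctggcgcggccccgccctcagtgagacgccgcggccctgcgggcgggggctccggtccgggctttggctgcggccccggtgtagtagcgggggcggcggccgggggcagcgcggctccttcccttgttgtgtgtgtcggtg
Mlx: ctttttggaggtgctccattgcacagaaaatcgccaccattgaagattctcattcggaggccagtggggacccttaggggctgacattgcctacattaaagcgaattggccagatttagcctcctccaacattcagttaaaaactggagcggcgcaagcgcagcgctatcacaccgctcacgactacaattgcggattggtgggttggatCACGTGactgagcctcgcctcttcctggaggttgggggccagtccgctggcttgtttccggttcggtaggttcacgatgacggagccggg

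The forkhead letters GTAAACA, searched on both strands because FOXO1 is a known target of PI3K signalling, were in 1 of the 9 genes, Mxi1, and in 4.05% of all genes with a window. The palindrome TTCNNNGAA of STAT factors, which act under the IL-2 receptor, was in 0 of the 9 and in 9.55% of all genes with a window. Matches of letters are a description of these windows and carry no measurement of binding. The 4 genes with the E-box did not move as a group: Mxd4 was called in every comparison, Mnt in none, and Max and Mlx only in PI3Kdi treated against naïve cells.

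Mxd3 (chromosome 13, 55325170 to 55329900, minus strand) encodes the MXD protein known from proliferating cells in S phase. It was at 0.12, 0 and 0 FPKM in naïve cells and at 5.67, 4.43 and 3.75 FPKM after TCR activation. PI3Kdi treated cells had 6.38, 4.79 and 5.75 FPKM, which overlapped with TCR activation alone, although 2 of the libraries lay above all of its libraries and all 3 lay above the TCR library of the same number. Mxd3 was called higher in both activated groups, by 5.16 and 5.45 (standard error 0.30 each, limma adjusted p = 2.5e-08 and 2.1e-08), and these sizes fell to 2.42 and 2.67 with a constant of 1. PI3Kdi against TCR activation gave 0.29, with a 95% confidence interval from -0.36 to 0.95. In CTL, the values were 13.55, 15.6 and 15.7 FPKM with IL-2 and 30.15, 23.0 and 23.5 FPKM without it. The groups were separate and the difference was 0.76 (limma adjusted p = 3.4e-04), under the fold limit. Prelid1 lies on the opposite strand and shares bases with the end of Mxd3, and whether the counting used the strand is not given in the sources used here.

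Mxd1 (chromosome 6, 86647044 to 86669234, minus strand) encodes the founding MXD protein, linked to the exit from division. Its mRNA was at 5.14, 4.89 and 3.94 FPKM in naïve cells, 3.24, 2.02 and 2.83 FPKM after TCR activation and 4.43, 4.77 and 4.06 FPKM with PI3Kdi. TCR activated libraries were below all others, while PI3Kdi treated and naïve libraries overlapped. The differences were -0.78 for TCR activation against naïve (limma adjusted p = 0.0020), 0.72 for PI3Kdi against TCR activation (limma adjusted p = 0.022) and -0.07 for PI3Kdi against naïve (95% confidence interval from -0.47 to 0.34), none of them called. CTL had 8.51, 8.24 and 14.4 FPKM with IL-2 and 6.20, 7.06 and 7.72 FPKM without it, and replicate 3 in IL-2 stood above the rest. The difference of -0.52 (limma adjusted p = 0.042) was -0.26 without that library (limma adjusted p = 0.11).

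Mxi1 (chromosome 19, 53310128 to 53373293, plus strand), also called MXD2, encodes a further antagonist that joins MAX and SIN3. In naïve cells its libraries had 3.17, 3.63 and 3.72 FPKM, with 4.13, 3.23 and 2.13 FPKM after TCR activation and 3.38, 2.95 and 2.69 FPKM with PI3Kdi. All 3 groups overlapped, and no difference among them had an adjusted p under 0.36 in limma. In CTL, Mxi1 was at 23.3, 22.7 and 14.7 FPKM with IL-2 and at 13.4, 13.7 and 11.3 FPKM without it. The groups were separate by a narrow gap, and the difference of -0.63 (limma adjusted p = 0.0082) was under the fold limit. Replicate 3 in IL-2 was thus the lowest of its group for Mxd4 and Mxi1 and the highest for Mxd1.

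Mnt (chromosome 11, 74830806 to 74845725, plus strand) encodes the most widely expressed repressor of the network. It was at 14.4, 13.4 and 19.8 FPKM in naïve cells, 11.4, 9.30 and 6.42 FPKM after TCR activation and 12.2, 13.3 and 9.41 FPKM with PI3Kdi. Naïve libraries were above both activated groups, which overlapped. TCR activation against naïve gave -0.82 (limma adjusted p = 0.0043), not called, and -1.01 with a call when TCR replicate 1 was left out. CTL had 12.4, 15.1 and 13.8 FPKM with IL-2 and 16.1, 16.35 and 16.9 FPKM without it, separate groups with a difference of 0.26 (limma adjusted p = 0.034). No fit of all libraries called Mnt in any comparison.

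Summed over Mxd1, Mxd3, Mxd4, Mxi1 and Mnt, the repressing members had 56.5 ± 7.49 FPKM (SD, n = 3) before activation, 19.9 ± 4.71 FPKM in TCR activated cells and 26.2 ± 2.34 FPKM in PI3Kdi treated cells. CTL had 74.6 ± 7.60 FPKM with IL-2 and 149 ± 3.52 FPKM without it. Mxd4 made up 57.2% of that sum in naïve libraries, 2.11% in TCR activated and 5.64% in PI3Kdi treated ones, and in CTL 20.0% with IL-2 and 58.6% without. Naïve cells and CTL without IL-2 thus had Mxd4 as their leading repressor mRNA. After TCR activation Mnt led instead, with 45.1% of the sum.

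The sum of Myc and Mycn stood to the repressing sum at a ratio of 1.25 ± 0.19 (SD, n = 3) before activation, 18.1 ± 4.32 with TCR activation alone and 11.7 ± 1.57 with the inhibitor added. The PI3Kdi libraries lay between 10.3 and 13.4, all below the TCR activated libraries between 15.2 and 23.1. Each sum by itself overlapped between these groups. Myc and Mycn summed to 286–314 FPKM with PI3Kdi and 293–399 FPKM with TCR activation alone. The repressing sum was 23.5–27.9 FPKM with PI3Kdi and 15.6–24.9 FPKM with TCR activation alone. In CTL the ratio was 3.53 ± 0.89 with IL-2 and 0.294 ± 0.021 without it, so that mRNA for the repressing members outweighed Myc and Mycn only in CTL deprived of IL-2. These ratios describe mRNA and not protein, and no test was made on them.

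**Figure D3:**
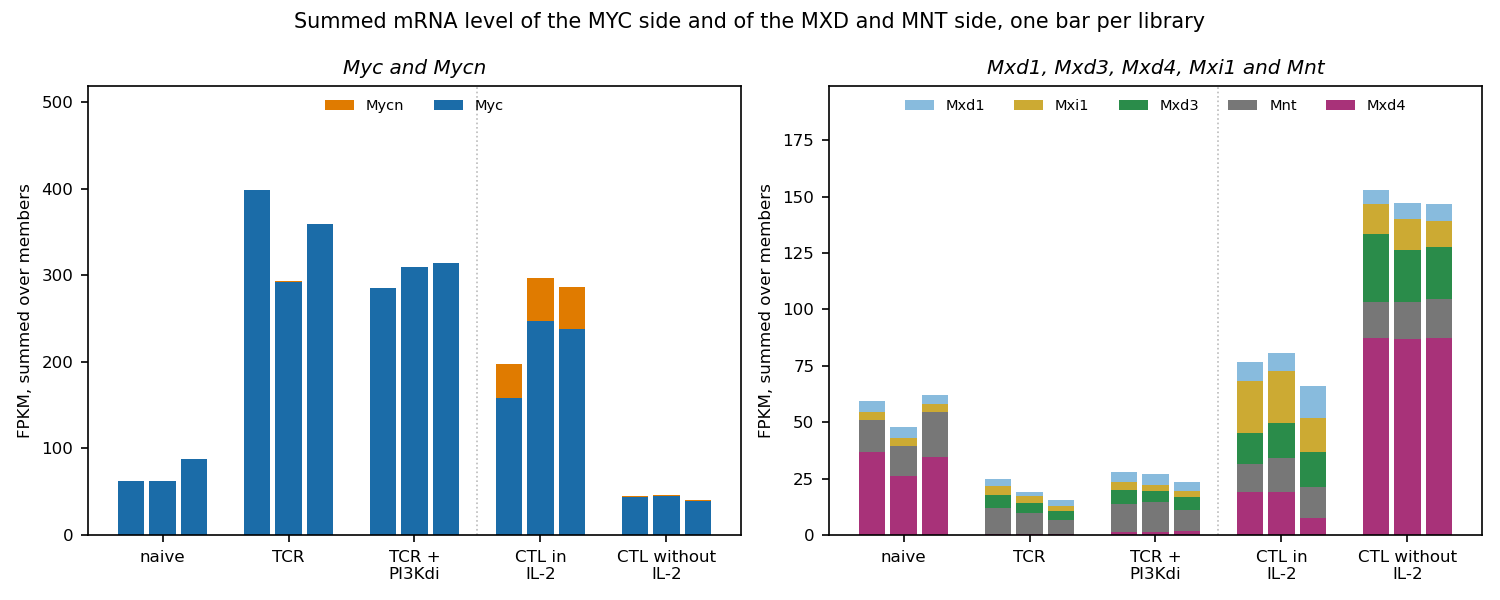
Summed FPKM of Myc and Mycn (left) and of Mxd1, Mxd3, Mxd4, Mxi1 and Mnt (right), with 1 stacked bar per library in replicate order and a dotted line between the separately normalised tables. Mycn is visible as a part of the bar in CTL held in IL-2, and Mxd4 forms the largest part of the right-hand bars in naïve cells and in CTL without IL-2, where the repressing sum is 149 ± 3.52 FPKM.

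Mlx (chromosome 11, 101086707 to 101092207, plus strand) was lower in both activated groups than in naïve cells. It was at 45.4, 42.5 and 41.8 FPKM in naïve cells, 22.8, 26.9 and 26.1 FPKM after TCR activation and 21.1, 20.4 and 19.95 FPKM with PI3Kdi. The 3 groups were separate and descended in that order. Mlx fell by 1.07 from naïve to PI3Kdi treated cells (standard error 0.09, limma adjusted p = 4.5e-07) and was called, whereas -0.77 for TCR activation against naïve (limma adjusted p = 6.1e-06) and -0.30 for PI3Kdi against TCR activation (limma adjusted p = 0.036, and 0.057 with the replicate block) were under the fold limit. The first call sat at the limit, and scaling each library to the same median ended it at -0.996. CTL had 37.2, 37.8 and 39.4 FPKM with IL-2 and 24.2, 24.7 and 22.9 FPKM without it, a difference of -0.67 (limma adjusted p = 3.6e-05) between separate groups. Psmc3ip lies on the opposite strand and shares bases with the end of Mlx.

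Of the genes that work with MLX, the partner gene Mlxip and the target genes Txnip and Arrdc4 were measured, and Mlxipl is not in the tables used here. Txnip, whose product limits glucose uptake, was at 308, 333 and 292 FPKM in naïve cells, 26.1, 20.8 and 21.8 FPKM after TCR activation and 26.6, 28.8 and 38.6 FPKM with PI3Kdi. It fell by 3.76 with TCR activation (standard error 0.14, limma adjusted p = 6.6e-10) and was at 0.44 above that level with PI3Kdi (limma adjusted p = 0.048, and 0.069 with the replicate block), not called. In CTL, Txnip rose from 138 ± 14.9 to 463 ± 10.2 FPKM without IL-2 (SD, n = 3), by 1.75 on the log2 scale (standard error 0.09, limma adjusted p = 4.9e-07). Mlxip gave -0.98, 0.30, -0.68 and 0.54 in the 4 comparisons and Arrdc4 gave -0.46, -0.27, -0.73 and 0.53, with no call. Arrdc4 was at 0.12 to 0.53 FPKM in naïve and activated libraries and at 0.61 to 1.23 FPKM in CTL. At such low levels, differences on this scale come out too small.

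Mga (chromosome 2, 119872503 to 119970129, plus strand) encodes a very large protein that binds MAX and T-box sites. It was at 17.95, 13.3 and 15.7 FPKM in naïve cells, 11.3, 11.7 and 10.5 FPKM after TCR activation and 12.15, 12.8 and 12.6 FPKM with PI3Kdi. The 3 groups did not overlap, and the differences were -0.47 for TCR activation against naïve (limma adjusted p = 0.0027) and 0.16 for PI3Kdi against TCR activation (limma adjusted p = 0.37). CTL had 9.98, 6.10 and 7.85 FPKM with IL-2 and 9.10, 10.9 and 11.2 FPKM without, and those groups overlapped. Mga was not called in any comparison. Among 8 genes of the complex that MGA forms with E2F6, PCGF6 and L3MBTL2, 1 was called higher with TCR activation, Tfdp1 at 3.77, beside 25.0% of all genes. For PI3Kdi against naïve cells 3 were called higher, Tfdp1 at 3.57, E2f6 at 1.54 and Pcgf6 at 1.27, beside 23.6% of all genes, and without IL-2 2 were called lower, Tfdp1 at -1.31 and Pcgf6 at -1.31, beside 13.9%. The median over these 8 genes was 0.74 with TCR activation and -0.64 without IL-2, and 0 of them were called for PI3Kdi against TCR activation in limma, where 5.14% of all genes were called. In that comparison 3 had an unadjusted p under 0.05, and the differences lay between -0.21 and 0.65, the latter that of E2f6 (limma adjusted p = 0.0093).

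Next, 34 genes listed as activated by MYC were followed, among them nucleolar, polyamine, purine and glycolytic genes. The list was chosen with earlier results of these data known, and the part of MYC in the differences of these genes was not tested. With TCR activation, 32 of 34 were called higher and 0 lower, beside 25.0% and 23.7% of all genes, with a median difference of 2.16 beside 0.01 over all genes. The 2 not called were Ccnd2 at 0.97 and Tfap4 at 0.71. The hexokinase gene Hk2 rose by 8.06 from 0.377 to 122 FPKM, the ornithine decarboxylase gene Odc1 by 4.26 and the chaperonin gene Hspd1 by 3.61 (limma adjusted p at most 4.5e-10).

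With PI3Kdi against TCR activation, 0 of 34 were called in limma, where 2.10% of all genes were called lower and 3.04% higher, so that a count of 0 is near the background. Of the 34, 16 had an unadjusted p under 0.05, all of these lower, and 33 had a difference below 0, with a median of -0.20 beside -0.01 over all genes. Without the fold limit, 9 of the 34 were lower and 0 were higher, where 8.19% of all genes were lower and 9.35% higher. The largest of these differences was that of Hk2, at -0.96, with 66.3, 56.9 and 65.2 FPKM against 123, 120.1 and 123 FPKM. Next was the amino acid transporter gene Slc7a5, with a difference of -0.83. Its PI3Kdi libraries had 132, 104 and 126 FPKM against 303, 174.5 and 184 FPKM, and TCR replicate 1 stood well above the rest of its group. For PI3Kdi against naïve cells, 31 of 34 were called higher, beside 23.6% of all genes, with a median of 2.05, and Hk2, Odc1 and Hspd1 led again.

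In CTL without IL-2, 28 of 34 were called lower and 0 higher, beside 13.9% and 14.3% of all genes, with a median of -1.78 beside 0.00 over all genes. The spermidine synthase gene Srm fell by 3.23, Slc7a5 by 3.09 and Hk2 by 2.81 (limma adjusted p at most 1.3e-06). Paics, which acts in purine synthesis, was the gene with a difference above 0, at 0.12. Several genes of the list, such as Npm1, Ptma, Eif4a1 and Eno1, have near-identical processed copies elsewhere in the genome, and their reads may have been split.

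**Figure D4:**
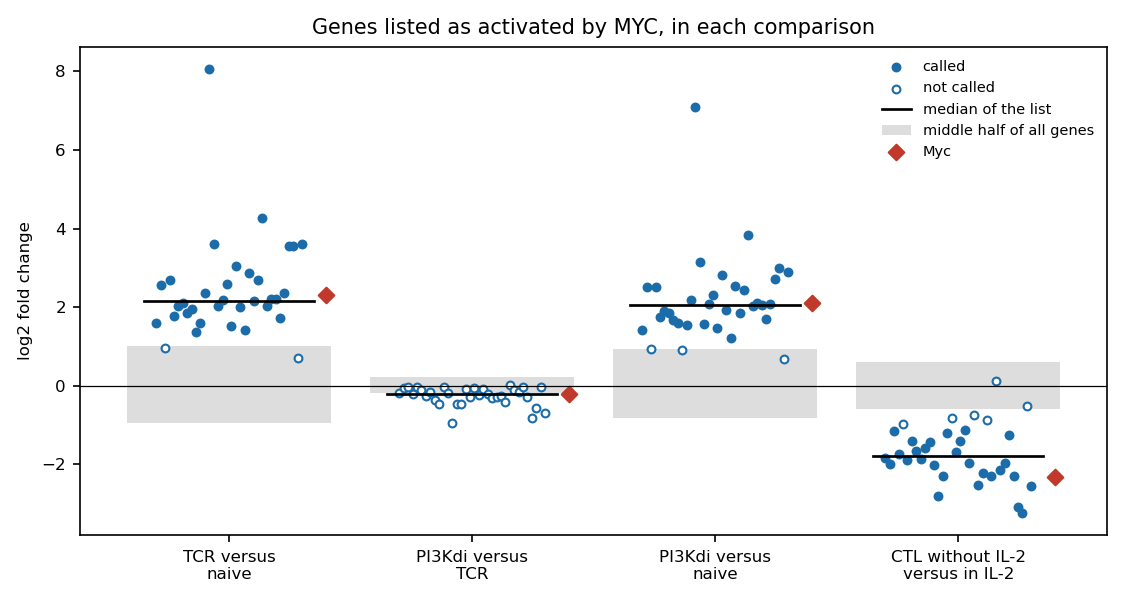
Limma log2 fold change of the 34 genes listed as activated by MYC in each comparison, with filled circles for called genes, a black line for their median, a diamond for Myc itself and grey boxes for the interquartile range of all genes. The medians are 2.16, -0.20, 2.05 and -1.78, and in the comparison of PI3Kdi with TCR activation all circles are open.

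Genes listed as repressed by MYC did not form a common pattern. The cell cycle inhibitor gene Cdkn1b fell by 2.73 with TCR activation, from 49.4 ± 4.84 to 7.45 ± 1.44 FPKM, and rose by 2.52 in CTL without IL-2, from 10.4 ± 1.03 to 60.1 ± 7.75 FPKM (SD, n = 3; limma adjusted p = 3.3e-08 and 2.8e-07). Cdkn1a was at 0 in all naïve libraries, where blank cells were read as 0. It was at 12.8, 4.64 and 6.65 FPKM after TCR activation and at 3.12, 2.49 and 1.46 FPKM with PI3Kdi, a fall by 1.66 (limma adjusted p = 0.0086). It fell by 1.51 in CTL without IL-2. Cdkn2b, which is not in the table used here for naïve and activated cells, fell by 3.47 in CTL without IL-2. Gadd45a fell by 1.74 with TCR activation, and Ndrg1 fell by 1.43 with PI3Kdi, while Ndrg2 was not called in any comparison. Of the 5 genes measured, 1 was called higher and 2 lower with TCR activation, beside 25.0% and 23.7% of all genes, and 1 and 2 with PI3Kdi against naïve, beside 23.6% and 21.3%. PI3Kdi against TCR activation gave 0 higher and 2 lower, beside 3.04% and 2.10% of all genes. Of 6 genes in CTL, 1 was higher and 2 were lower, beside 14.3% and 13.9%.

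Of 12 genes that control MYC turnover or bind it, 5 were called higher and 3 lower with TCR activation, beside 25.0% and 23.7% of all genes, so that the share called lower is that of the background. They were led by the mitotic kinase gene Aurka at 4.84, the kinase gene Pim1 at 3.35 and the ubiquitin ligase gene Skp2 at 2.90, with the MYC interacting adaptor gene Bin1 at -2.74. Aurka was the member of this list called with PI3Kdi, beside 5.14% of all genes, and it fell by 1.03 from 43.9 to 21.5 FPKM. In CTL without IL-2, 4 were lower, beside 13.9% of all genes, led by Pim1 at -1.57, Mycbp at -1.46 and Skp2 at -1.36, and the deubiquitinase gene Usp28 rose by 1.03. Fbxw7, which encodes the best known ubiquitin ligase of MYC, was not called in any comparison and lay between 6.35 and 14.5 FPKM.

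Among 8 coactivator genes of MYC, Ruvbl2 was higher by 2.37, Ruvbl1 by 2.35 and Wdr5 by 1.12 in TCR activated than in naïve cells. Trrap was lower by 1.06 and Ep400 by 1.01 in the same comparison. CTL without IL-2 had lower Ruvbl2 at -1.84, Ruvbl1 at -1.56 and Kat2a at -1.45. These are 3 higher and 2 lower of 8, beside 25.0% and 23.7% of all genes, and 3 lower of 8, beside 13.9%. The 7 genes of the SIN3 corepressor that the MXD proteins recruit had 3 called higher with TCR activation, namely Sap30 at 3.07, Hdac2 at 1.24 and Rbbp7 at 1.23, beside 25.0% of all genes, and 1 called lower without IL-2, Hdac2 at -1.04, beside 13.9%. Sin3a and Sin3b themselves were not called in any comparison. With PI3Kdi against TCR activation, 0 of the 8 coactivator genes and 0 of the 7 corepressor genes were called in limma, which is near the background of 5.14% of all genes, and 3 and 2 of them had an unadjusted p under 0.05. Without the fold limit, Ruvbl1 at -0.28, Ruvbl2 at -0.32 and Hdac1 at -0.22 had an adjusted p under 0.05 in limma, and for Hdac1 it was 0.073 with the replicate block.

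The genes whose profile was most like that of Myc were sought among 9624 genes with a mean of at least 1 FPKM in both tables, by the Euclidean distance of log2(FPKM + 0.1) over the 15 libraries after centring each gene within each table. Nearest were Shmt2 of mitochondrial folate metabolism, the phosphatase gene Dusp5, the ribosome assembly gene Ppan, the uridine kinase gene Uck2 and the nucleolar gene Rrp1b, at distances of 0.418 to 0.626 beside a median of 4.51 over all genes. Their differences were 2.07 to 2.35 with TCR activation and -2.38 to -1.96 without IL-2. Max ranked 1435 and Mycn was not among the genes with enough signal.

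For Mxd4 the nearest genes were Scml4, Ypel3, Trp53inp1, A430078G23Rik and Slc14a1, at distances of 1.42 to 1.80 beside a median of 8.38. All 5 were low after TCR activation and higher without IL-2, with differences of -6.21 to -4.96 and 2.20 to 3.46. With PI3Kdi against TCR activation their differences were 1.89, 1.34, 1.98, 1.70 and 0.71 in that order, beside 1.64 for Mxd4. No other member of the network was near Mxd4, the closest being Mnt at rank 2840. The profiles are across libraries that share groups and normalisation, and the distances are given without a test. The genes near Myc and Mxd4 were picked by these same values, so their differences resemble those of Myc and Mxd4 by construction.

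**Figure D5:**
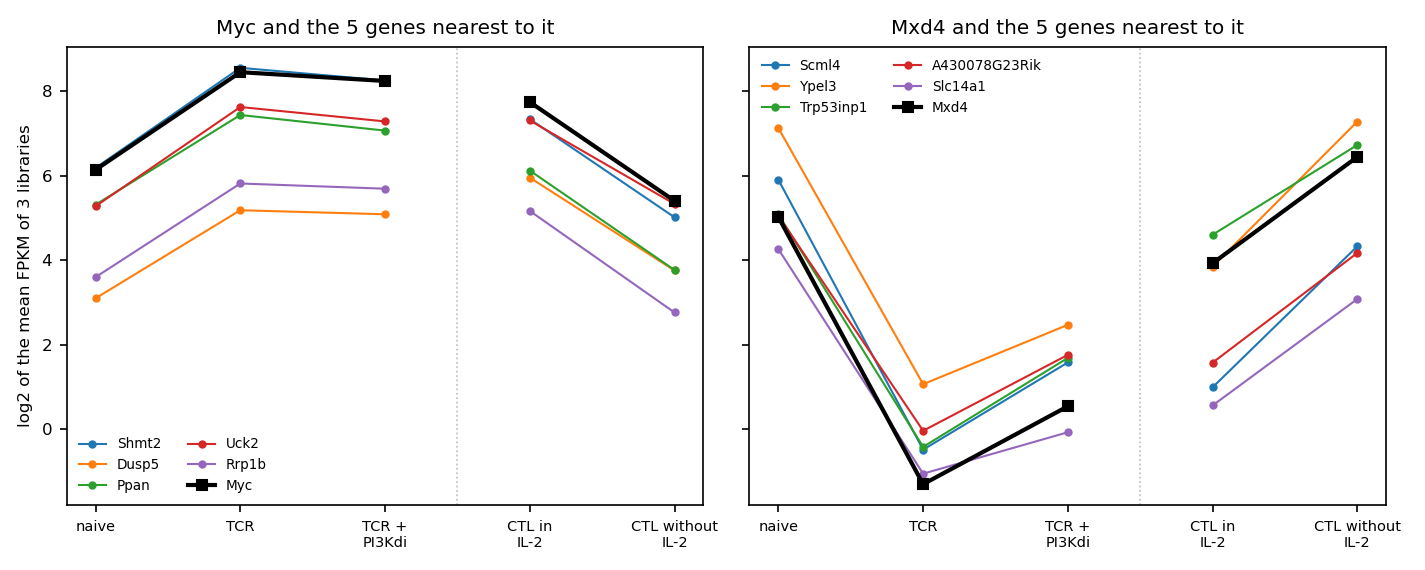
Log2 of the mean FPKM of 3 libraries in each group for Myc (left, black squares) and Mxd4 (right, black squares), with the 5 genes nearest to each as coloured lines, which are broken between the separately normalised tables. Myc rose from 70.6 to 350 FPKM with TCR activation, while Mxd4 fell from 32.5 to 0.407 FPKM and stood at 1.46 FPKM with PI3Kdi.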

How the data were processed

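RNA of 15 libraries of mouse P14 CD8+ T cells was analysed from the FPKM that the authors deposited in 2 tables, 1 for naïve and activated cells and 1 for CTL. Per the methods, the authors aligned reads with STAR 2.5.2b to mm10 and counted them with subread 1.5.1. The authors then used edgeR to drop low genes (filterByExpr) and to scale libraries (TMM), and took FPKM over the merged exons of a gene. The same steps were assumed for the CTL table. The deposited FPKM have 2 decimals, and 1039 blank cells of the first table were read as 0. Sums of FPKM per library lay between 438119 and 502972, and libraries of a group had a Pearson r of at least 0.983 across genes. Read totals are not given in the sources used here, so the precision rests on 3 replicates per group.

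Samples were grouped by title, since the treatment labels of 2 CTL libraries in IL-2 name other interleukins. With limma 3.58.1 in R 4.3.3, log2(FPKM + 0.1) was fitted with an intensity trend, the 9 libraries of the first table in 1 fit and the 6 CTL libraries in another, with Benjamini-Hochberg adjustment across each whole table. A gene was called at an adjusted p under 0.05 and a fold change above 2 or below 0.5. The fit was tested on simulated data, in which only genes with a mean of at least 1 FPKM were changed, by well over the fold limit. That test does not cover lower mRNA or differences near the limit. The members and gene lists were chosen with earlier results of these data known. Of the B cell list, a marker gene is not reported here. From each list, up to 3 called genes with the largest change per comparison were named, with all genes of the lists around MLX and of those repressed by MYC, and the 5 genes nearest to Myc and to Mxd4; Ccnd2, Tfap4, Slc7a5 in PI3Kdi treated cells, Paics, Usp28, Fbxw7, Sin3a, Sin3b and Hdac1 were picked after their values were seen.

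Same-numbered libraries deviated together for TCR and PI3Kdi (Pearson r of 0.203 to 0.506 across genes for the 3 pairs, mean 0.33) and for CTL (0.123 to 0.257, mean 0.18). For naïve and TCR libraries the mean was -0.03. The main fits used the group only, and pairing by number entered only in the replicate block. Standard errors and p values are thus unpaired unless that block is named. Alternatives were a constant of 1 or 0.01, a minimum mean of 1 FPKM, median scaling, the replicate block, no intensity trend, only the groups compared, other fold limits and leaving out each library. Coordinates and promoter windows are from RefSeq on GRCm38.p6, overlaps of genes from GENCODE vM21. Python 3.11.15, pandas 2.3.3 and matplotlib 3.10.9 were used.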

Additional observations from a re-analysis of the deposited data

How the results depend on the processing

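For single members, 492 of 507 values kept their direction and their side of the threshold. The log2 difference of Mxi1 in TCR against naïve lay between -0.401 and 0.0607 when a library was left out and turned without TCR replicate 3. In PI3Kdi against TCR it lay between -0.279 and 0.183 and turned without TCR replicate 1, TCR replicate 2 or PI3Kdi replicate 3. Mxd1 in PI3Kdi against naïve turned to 0.00821 with median scaling and lay between -0.181 and 0.00664 when a library was left out, turning without naïve replicate 1. Mycn in PI3Kdi against naïve was 2.43 and called with a constant of 0.01. The number of members called for PI3Kdi against TCR was 0 with a constant of 1 in limma, where 5 members had an unadjusted p under 0.05, 1 with a minimum mean of 1 FPKM, which removed Mycn, and 5 with no fold limit. TCR against naïve gave 8 members with a fold limit of 1.5 and 9 with none, and CTL gave 7 and 9. Over all genes, no fold limit gave 9096 for TCR against naïve, 1975 for PI3Kdi against TCR, 8906 for PI3Kdi against naïve and 8056 for CTL. A limit of 1.5 gave 1120 for PI3Kdi against TCR and 5657 for CTL, and a constant of 1 gave 311 for PI3Kdi against TCR. Leaving out 1 library gave 4 to 5, 2, 4 to 5 and 3 to 4 members called in the order of comparisons above. The replicate block, a fit for the pairing by number, changed the call of no member: it gave 4, 2, 5 and 3 members called. Without the fold limit, it raised the adjusted p of Mlx, Txnip and Hdac1 in PI3Kdi against TCR above 0.05, and 9 of the 34 genes activated by MYC were lower with it as without it. Except where a setting's own construction shows it, the cause was not tested. With 3 libraries per group and no read totals, differences of mRNA under 1 FPKM, such as Mycn outside CTL, are the least certain.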
